A study of Mus musculus with 6 samples.

Results

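The 9 surface proteins by which blood stem and progenitor cells are recognised were followed across leukaemic mouse bone marrow: the receptor tyrosine kinases KIT, FLT3 and TEK, the markers CD34, SLAMF1, PROCR and ENG, and the adhesion and signalling proteins CD44 and CD47. Every probe set of the annotated array table whose symbol names Kit, Flt3, Cd34, Slamf1, Tek, Procr, Eng, Cd47 or Cd44 was taken, which gave 19 probe sets for 9 of 20577 genes, and none of them names a further gene. All 6 marrows came from leukaemic NUP98/HOXD13 mice, whose fusion transgene gives a myelodysplastic syndrome that can turn into acute leukaemia, and all 6 also carry MxCretg, an interferon-inducible Cre recombinase. Of these, 3 samples are Gfi1bfl/fl and labelled Gfi1b KO, and 3 are Gfi1b wt and labelled wildtype. The labels give no age or time, do not say how or when Cre was induced, and leave unsaid whether each sample is a mouse of its own, so a p-value here measures only how these arrays spread. Values of a group are listed in the order of replicates 1, 2 and 3. The material was whole marrow from femur, tibia and humerus, so fewer cells of a type and less RNA per cell cannot be told apart. Levels are log2 values from RMA, which corrects background, normalizes arrays and summarises the probes of a probe set, and a group mean under 4 is called near the floor, since the array medians lay between 3.73 and 3.86.

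KIT is the receptor for stem cell factor and FLT3 the receptor for FLT3 ligand, and both signal through RAS, PI3 kinase and STAT5 and are found on early progenitors. SLAMF1 (CD150), CD34, PROCR (the endothelial protein C receptor), ENG (endoglin, an auxiliary TGF-beta receptor) and TEK (the angiopoietin receptor) mark mouse stem cell fractions, and several of them are also made by endothelium. CD44 binds hyaluronan in the marrow niche, and CD47 signals to SIRPA on macrophages to spare a cell from being engulfed. Gfi1b encodes a zinc finger repressor of stem cells and of the erythroid and megakaryocytic lineages, whose family binds DNA at a core of AATC.

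Promoters of Slamf1, Cd47 and Cd44 are shown because these genes gave the clearest differences below. Each is the 300 bases from 250 before to 50 after an annotated start, from RefSeq on GRCm38.p6, and capitals mark AATC or its reverse complement GATT. The Slamf1 window is chr1:171766882-171767181 on the plus strand, the Cd47 window is chr16:49855404-49855703 on the plus strand (the first of 2 starts listed), and the Cd44 window is chr2:102901616-102901915 on the minus strand.
Slamf1: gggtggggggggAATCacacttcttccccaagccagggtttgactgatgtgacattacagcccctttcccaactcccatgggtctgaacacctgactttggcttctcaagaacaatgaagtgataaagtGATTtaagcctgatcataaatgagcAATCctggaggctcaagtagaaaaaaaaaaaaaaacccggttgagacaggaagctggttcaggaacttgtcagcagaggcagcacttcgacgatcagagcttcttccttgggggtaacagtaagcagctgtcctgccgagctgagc
Cd47: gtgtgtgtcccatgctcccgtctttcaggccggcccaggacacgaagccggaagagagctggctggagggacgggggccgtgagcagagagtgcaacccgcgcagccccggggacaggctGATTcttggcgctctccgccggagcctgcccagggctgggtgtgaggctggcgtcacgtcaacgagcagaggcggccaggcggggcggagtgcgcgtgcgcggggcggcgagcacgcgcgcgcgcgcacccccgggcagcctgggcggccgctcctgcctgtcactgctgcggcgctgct
Cd44: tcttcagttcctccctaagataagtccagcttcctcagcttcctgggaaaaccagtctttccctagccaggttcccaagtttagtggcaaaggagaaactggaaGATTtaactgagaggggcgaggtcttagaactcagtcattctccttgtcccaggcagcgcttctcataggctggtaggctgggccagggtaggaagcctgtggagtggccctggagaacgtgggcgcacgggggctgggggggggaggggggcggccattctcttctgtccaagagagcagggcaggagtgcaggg
The motif stood 3 times in the Slamf1 window and 1 time each in those of Cd47 and Cd44, and 73.1% of 32851 promoter windows of that length hold it on either strand. One Slamf1 match lies within the longer sequence TAAATCAC, read as GTGATTTA on the printed strand from 123 to 116 bases before the start, a sequence that 0.578% of the windows hold and that was searched after the Slamf1 window had been seen. The windows of the other 8 genes do not hold TAAATCAC, and those of Kit and Eng hold no AATC. GATA, the core bound by GATA factors, stood 1 time in the Slamf1 window, 1 time in that of Cd44 and 0 times in that of Cd47, and is held by 57.9% of all windows, and no AATC match overlapped a GATA match in a window of these 9 genes.

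At its 1 probe set, the targeted gene did not read lower in the KO-labelled samples. Gfi1b read 10.88, 11.63 and 11.67 in the KO-labelled marrows and 5.83, 6.37 and 4.38 in the wildtype marrows, so the groups did not overlap. The difference was 5.86 with a standard error of 0.51 (limma adjusted p = 0.00715), higher in the KO-labelled samples. Without KO replicate 2 it missed the threshold (limma adjusted p = 0.065). An exact two-sided permutation test gave p = 0.1, the smallest that 3 against 3 samples allow. The 1 Gfi1b probe set checks nothing if it lies outside the deleted part, which the labels do not give, and every direction below is that of the KO-labelled samples. Whether the group labels stand the right way round was not tested. Among marker lists of marrow cells, 8 of 11 neutrophil and granulocyte precursor genes and 5 of 11 monocyte and macrophage genes were lower with a limma adjusted p under 0.05, where 2.0% of all genes were, and the part of such differences in cell makeup in the results below was not tested.

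None of the 19 probe sets passed the test across the array. The groups did not overlap at Slamf1 1425570_at and 1425571_at, Cd47 1449507_a_at, Cd44 1434376_at and 1423760_at, Tek and Procr. Of the 19 probe sets, 0 had a limma adjusted p under 0.05, where 2.93% of all 45101 probe sets did (1.53% higher and 1.40% lower). At an unadjusted p under 0.05 there were 7 of the 19, against 16.9% of all probe sets. Of these 7, 5 were higher and 2 lower, against 8.87% and 8.06% of all probe sets. These 7 were also the probe sets whose groups did not overlap, 5 higher and 2 lower, where 12.5% of all probe sets were higher and 10.3% lower without overlap. The median difference of the 19 was 0.10 and that of all probe sets 0.02. Of the 19, 3 were near the floor in both groups and 2 in 1 group, and the number of arrays limits what could be detected.

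**Figure D1:**
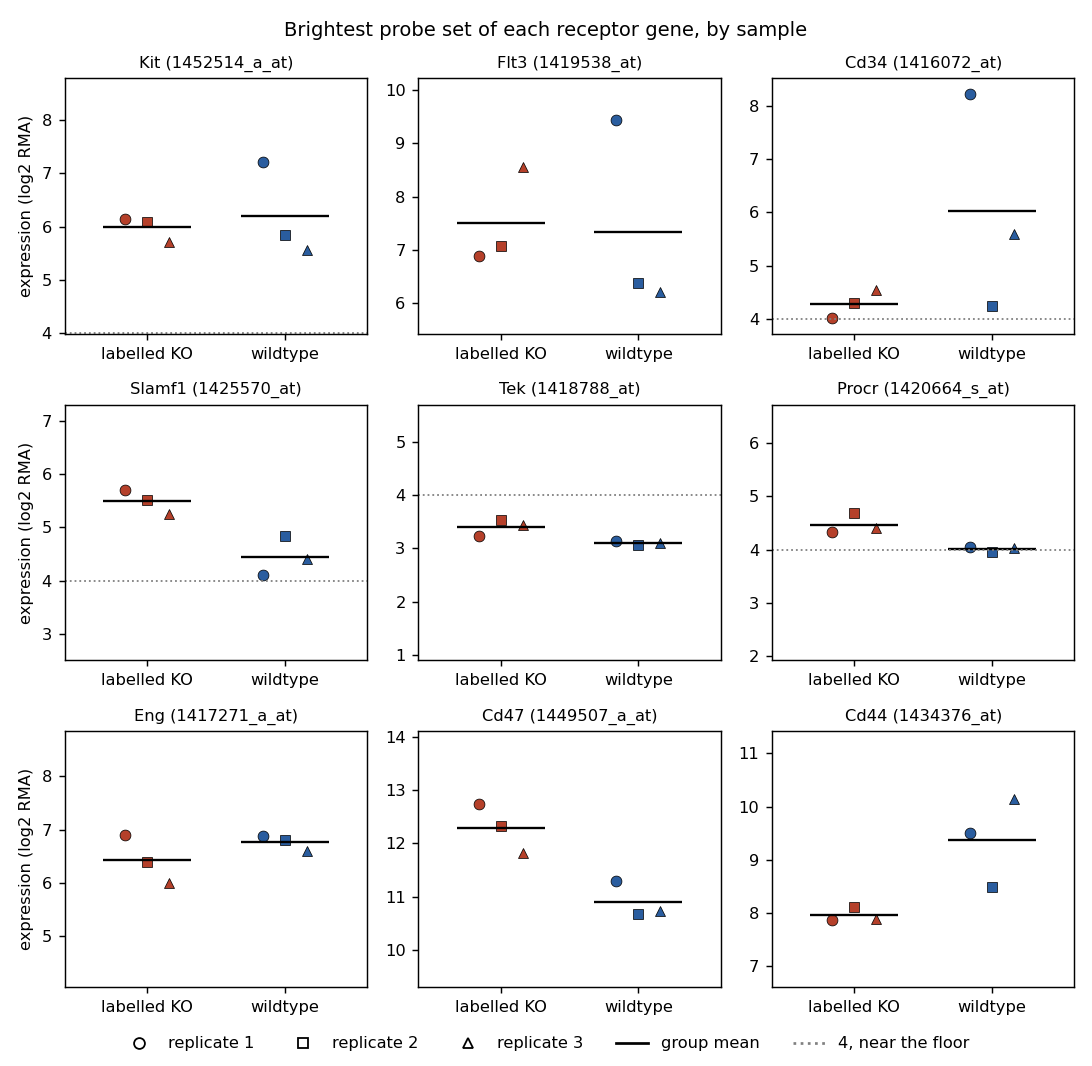
Level of each gene at its probe set with the highest mean, in log2 RMA units, in the 3 KO-labelled samples and the 3 wildtype samples. Marker shapes give the replicate number, bars the group means and the dotted line the level of 4 under which a mean is near the floor, and every panel spans the same height. Slamf1, Cd47, Procr and Tek lie higher and Cd44 lower in the KO-labelled samples without overlap, while wildtype replicate 1 stands high for Kit, Flt3 and Cd34.

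Kit, the receptor by which progenitors and mast cells answer stem cell factor, was at similar group means. Its brighter probe set, 1452514_a_at, read 6.15, 6.09 and 5.72 in the KO-labelled marrows and 7.21, 5.84 and 5.56 in the wildtype marrows. Wildtype replicate 1 was the highest of the 6 samples and the other 5 lay between 5.56 and 6.15, so the groups overlapped. The difference was -0.22 (95% interval -1.23 to 0.79, limma adjusted p = 0.849), and it was 0.29 without wildtype replicate 1. The other probe set, 1415900_a_at, lay between 4.03 and 4.91 and differed by -0.18 (interval -0.75 to 0.39). The difference between the changes of these 2 probe sets was -0.04, with an interval of -0.76 to 0.68.

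Flt3, the receptor of early lymphoid and myeloid progenitors, varied more within the groups than between them. It read 6.89, 7.08 and 8.56 in the KO-labelled marrows and 9.44, 6.37 and 6.20 in the wildtype marrows. KO replicate 3 and wildtype replicate 1 were the high samples, and the other 4 lay between 6.20 and 7.08. The wildtype range of 3.24 was reached by 0.282% of all probe sets. The group means were 7.51 ± 0.91 and 7.34 ± 1.82 (SD, n = 3), and the difference of 0.17 had an interval of -2.03 to 2.37 (limma adjusted p = 0.951). It was 1.22 without wildtype replicate 1 and -0.35 without KO replicate 3. Angpt1, the ligand of TEK and not a partner of FLT3, was high in the same 2 samples. It read 6.98 in KO replicate 3 and 6.65 in wildtype replicate 1 against 4.13 to 5.14 in the other 4. Angpt1 differed by 0.57 between the groups and did not pass (limma adjusted p = 0.791), and a link between Angpt1 and Flt3 was not tested.

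Cd34, a sialomucin of progenitors and endothelium, was highest in 1 wildtype sample. It read 4.01, 4.30 and 4.54 in the KO-labelled marrows and 8.22, 4.25 and 5.60 in the wildtype marrows. Wildtype replicates 1 and 3 lay above every KO-labelled marrow, while wildtype replicate 2 lay among them. The difference was -1.74 (interval -3.93 to 0.45, limma adjusted p = 0.411), a size that 2.49% of all probe sets reached, and it was -0.64 without wildtype replicate 1 and -2.62 without wildtype replicate 2. The wildtype range of 3.97 was reached by 0.133% of all probe sets. Of the 19 probe sets, 14 had their highest wildtype value in replicate 1, against 29.7% of all probe sets. Several of the 14 read the same gene and are not separate observations, and some gaps were small, as at Tek (3.14 against 3.06 and 3.10). At the brightest probe sets of the 9 genes, wildtype replicate 1 was the highest of the 6 samples for 3. The list of 13 endothelial markers had its highest mean in wildtype replicate 1 as well, at 4.26 against 3.95 to 4.13 in the other 5 samples. In that sample Egfl7, an endothelial secreted factor gene, read 7.46 (5.46 to 6.04 elsewhere) and Pecam1, the gene of the adhesion molecule CD31, read 5.37 (3.66 to 4.67 elsewhere), while Cdh5, the endothelial cadherin gene, lay between 3.88 and 3.94 in all 6. Sox17 and Stab2 were also highest in wildtype replicate 1, at 3.91 and 4.01, but near the floor in both groups. Flt1, Plvap and Vwf were highest in other samples, at 4.98 (wildtype replicate 3), 4.94 (KO replicate 3) and 5.32 (KO replicate 2). Kdr, Emcn, Tie1, Cldn5 and Robo4 were highest in other samples too, so the list did not move as a whole. The part of endothelial cells in the Cd34 values was not tested. Podxl, the gene of the CD34 relative podocalyxin, read 7.82, 7.37 and 5.14 in KO-labelled marrow and 4.74, 4.66 and 4.19 in wildtype. Its groups did not overlap, where 12.5% of all probe sets were higher without overlap, and its difference of 2.25 did not pass (limma adjusted p = 0.148).

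Slamf1, the SLAM family receptor that marks long-term stem cells and is also made by lymphocytes and megakaryocyte progenitors, was higher in each KO-labelled sample at its brightest probe set. Probe set 1425570_at read 5.70, 5.52 and 5.25 in the KO-labelled marrows and 4.10, 4.83 and 4.41 in the wildtype marrows. The lowest KO-labelled sample lay above the highest wildtype sample, wildtype replicate 2. The means were 5.49 ± 0.23 and 4.45 ± 0.37 (SD, n = 3), a 2.07-fold difference of 1.05 on the log2 scale (interval 0.53 to 1.56). It missed the threshold with a limma adjusted p of 0.0606, and without wildtype replicate 2 it passed (limma adjusted p = 0.0255). In wildtype replicate 2 the T and NK cell marker list averaged 7.72, against 4.82 to 5.34 in the other 5 samples, and the part of lymphocytes in the Slamf1 values was not tested. Probe set 1425571_at was also higher without overlap, by 0.53, with a wildtype mean of 3.66 near the floor. Probe set 1425569_a_at was near the floor in both groups and differed by 0.21, with overlap.

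Among the other SLAM family genes and adaptors, of 10 measured 0 rose and 1 fell, where 1.92% of all genes rose and 2.0% fell. Their median difference was -0.64, against 0.01 over all genes. The one that fell was Cd84, a self-binding receptor of myeloid cells and platelets, which changed by -1.90 ± 0.31 (SE, limma adjusted p = 0.0338). Its values were 5.24, 5.61 and 5.57 in KO-labelled marrow and 7.64, 6.65 and 7.81 in wildtype. Cd48, the SLAM family marker that is absent from the long-term stem cell fraction, averaged 8.31 ± 0.82 in KO-labelled marrow and 8.31 ± 1.46 in wildtype (SD, n = 3; limma adjusted p = 0.998).

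Tek and Procr showed small differences at dim probe sets. Tek read 3.24, 3.53 and 3.43 in the KO-labelled marrows and 3.14, 3.06 and 3.10 in the wildtype marrows. All 6 values are near the floor, and the difference of 0.30 did not pass (limma adjusted p = 0.277). Procr read 4.33, 4.69 and 4.40 in KO-labelled marrow and 4.06, 3.95 and 4.04 in wildtype. Its groups did not overlap, and the difference of 0.45 (interval 0.13 to 0.77) did not pass either (limma adjusted p = 0.146). The 1 Procr probe set carries the suffix of sets that can read more than 1 gene. Of 13 endothelial markers, 0 passed in either direction and 7 were near the floor in both groups, with list means of 3.95 to 4.03 in KO-labelled marrow and 4.0 to 4.26 in wildtype.

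Eng, which presents TGF-beta and BMP ligands to their signalling receptors, did not separate the groups. Its brighter probe set, 1417271_a_at, read 6.89, 6.39 and 6.00 in the KO-labelled marrows and 6.88, 6.81 and 6.60 in the wildtype marrows. The difference was -0.34 (interval -0.89 to 0.22, limma adjusted p = 0.54). The other probe set, 1432176_a_at, lay between 3.82 and 4.18 and differed by 0.17. Among 18 measured partners of TEK, ENG and PROCR, 2 rose and 1 fell, where 1.92% of all genes rose and 2.0% fell. The median difference of the 18 was 0.21. Tgfbr3, which encodes betaglycan, an auxiliary TGF-beta receptor related to endoglin, rose from 4.11 ± 0.30 to 7.05 ± 0.42 (SD, n = 3), a 7.65-fold difference (limma adjusted p = 0.00701). It read 6.58, 7.21 and 7.36 in KO-labelled marrow and 3.79, 4.38 and 4.17 in wildtype, with no overlap. F2r, the thrombin receptor that activated protein C on PROCR can cleave, rose by 6.21 ± 0.70 (SE, limma adjusted p = 0.014). Id1, a target of BMP receptors, fell by 2.09 (limma adjusted p = 0.0243). Acvrl1, the type I receptor that works with endoglin, and Tie1, the partner of TEK, differed by -0.71 and 0.03 without passing.

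**Figure D2:**
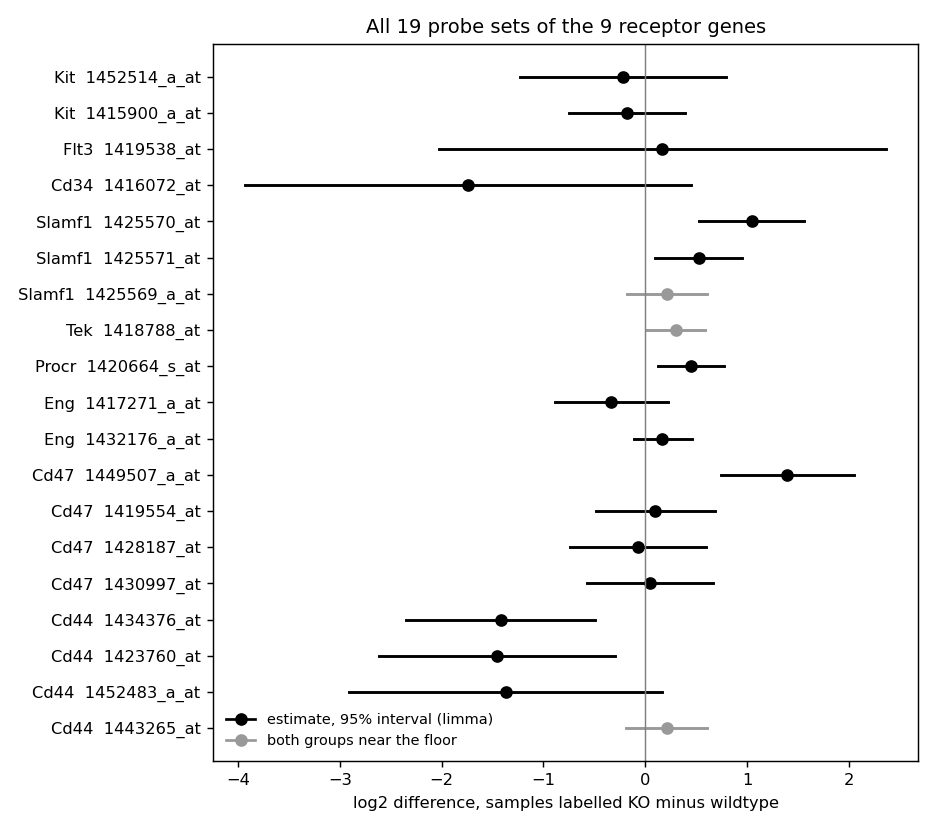
Difference in log2 RMA units between the KO-labelled samples and wildtype for the 19 probe sets, with 95% intervals from limma; grey marks probe sets near the floor in both groups. Cd47 1449507_a_at and Slamf1 1425570_at lie highest, at 1.39 and 1.05, the other 3 Cd47 probe sets lie between -0.07 and 0.10, and 3 of 4 Cd44 probe sets lie between -1.46 and -1.37.

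Cd47, the signal that spares a cell from macrophages, differed between the groups at 1 of its 4 probe sets by more than at the other 2 that lay well above the floor. Probe set 1449507_a_at read 12.74, 12.32 and 11.82 in the KO-labelled marrows and 11.29, 10.67 and 10.74 in the wildtype marrows. Every KO-labelled sample lay above every wildtype sample. The means were 12.29 ± 0.46 and 10.90 ± 0.34 (SD, n = 3), a 2.62-fold difference of 1.39 (interval 0.74 to 2.05) that missed the threshold with a limma adjusted p of 0.0537. Taken over genes, with 1 probe set for each, the limma adjusted p was 0.0462, past the threshold, while the mean of the 4 probe sets differed by 0.37 (limma adjusted p = 0.485). Probe set 1419554_at read 9.83, 9.91 and 9.64 in KO-labelled marrow and 10.24, 9.34 and 9.49 in wildtype. Its groups overlapped and it differed by 0.10 (interval -0.48 to 0.69). Probe sets 1428187_at and 1430997_at differed by -0.07 (interval -0.74 to 0.60) and 0.05 (interval -0.57 to 0.67), also with overlap.

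The unequal change was tested on the difference between probe sets within an array, which an equal change at 2 probe sets well above background would leave in place. Against 1428187_at, the brightest Cd47 probe set stood 2.98, 2.71 and 2.69 higher in the KO-labelled marrows and 1.19, 1.5 and 1.32 higher in the wildtype marrows. The gap was wider in each KO-labelled sample, by 1.46 ± 0.19 (SE, limma adjusted p = 0.00755 over 16708 pairs of probe sets of a gene). Against 1419554_at it was wider by 1.29 (limma adjusted p = 0.0239). Against 1430997_at it was wider by 1.34 (limma adjusted p = 0.0115), but that probe set read only 3.92 to 4.89, close to the floor, where a probe set may not follow a change, so this pair does not show an unequal change. These 3 share the brightest probe set. They are the pairs that passed among 10 pairs of these genes, where 4.11% of all pairs did. The first stayed past the threshold with each sample left out in turn, with adjusted p between 0.012 and 0.0375, while the pair with 1419554_at lost its call without KO replicate 2 (0.0758) or wildtype replicates 1 (0.0885) or 3 (0.0888), and that with 1430997_at without KO replicate 2 (0.0525). Probe set 1449507_a_at carries the suffix of sets that read several transcripts of 1 gene, and where the 4 probe sets lie on the Cd47 transcripts is not given in the files used here. Red cells carry much CD47: the erythroid marker list averaged 9.62, 9.36 and 7.26 in the KO-labelled marrows and 6.93, 8.55 and 6.39 in the wildtype marrows, and its part in the Cd47 values was not tested. Sirpa, the macrophage receptor for CD47, fell from 8.12 ± 1.31 to 4.73 ± 0.52 (SD, n = 3), 10.5-fold lower (limma adjusted p = 0.0479). This call was lost when KO replicate 1, 2 or 3 or wildtype replicate 1 or 3 was left out (limma adjusted p from 0.0948 to 0.171). Without wildtype replicate 2 it stayed (limma adjusted p = 0.00359). Sirpa read 4.82, 4.18 and 5.20 in KO-labelled marrow and 8.88, 6.60 and 8.88 in wildtype. The mean of the monocyte and macrophage list was lower as well, at 4.27 to 4.93 against 6.30 to 7.70. That list did not move as a whole: 5 of its 11 genes were lower past the threshold and 6 did not pass. Among these 6, C1qa, C1qb, Vcam1 and Mrc1 differed by only -0.11, 0.08, -0.05 and -0.27. The part of such cells in the Sirpa values was not tested.

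**Figure D3:**
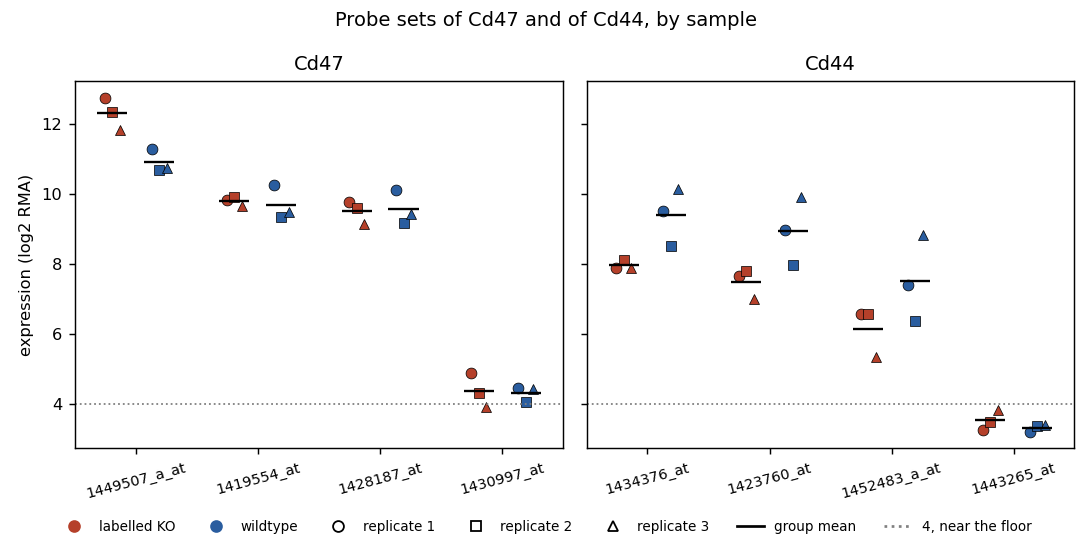
Level in log2 RMA units at each of the 4 probe sets of Cd47 (left) and of Cd44 (right) in the 6 samples; bars are group means and the dotted line is at 4. At Cd47 the groups separate at 1449507_a_at and overlap at the other 3 probe sets, while at Cd44 the KO-labelled samples lie lower at 1434376_at and 1423760_at without overlap.

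Cd44, the hyaluronan receptor of marrow cells, was lower in the KO-labelled samples at its 3 probe sets above the floor, by similar amounts. Probe set 1434376_at read 7.88, 8.12 and 7.89 in the KO-labelled marrows and 9.50, 8.50 and 10.15 in the wildtype marrows. The groups did not overlap, and wildtype replicate 2 lay closest to the KO-labelled samples. The means were 7.96 ± 0.14 and 9.38 ± 0.83 (SD, n = 3), 2.68-fold lower (difference -1.42, interval -2.35 to -0.49, limma adjusted p = 0.124). Probe set 1423760_at differed by -1.46 without overlap (limma adjusted p = 0.191), and 1452483_a_at by -1.37 with overlap (limma adjusted p = 0.351). Probe set 1443265_at was near the floor in both groups. The changes of the 3 brighter probe sets differed from each other by 0.04 (interval -0.49 to 0.57) and -0.05 (interval -0.89 to 0.78). Without wildtype replicate 2, the first 2 passed, with differences of -1.86 (limma adjusted p = 0.0122) and -1.95 (limma adjusted p = 0.0417). Cd44 is made by most leukocytes, and the neutrophil list averaged 4.10 to 7.81 in KO-labelled marrow and 11.62 to 13.33 in wildtype, and its part in the Cd44 values was not tested.

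**Figure D4:**
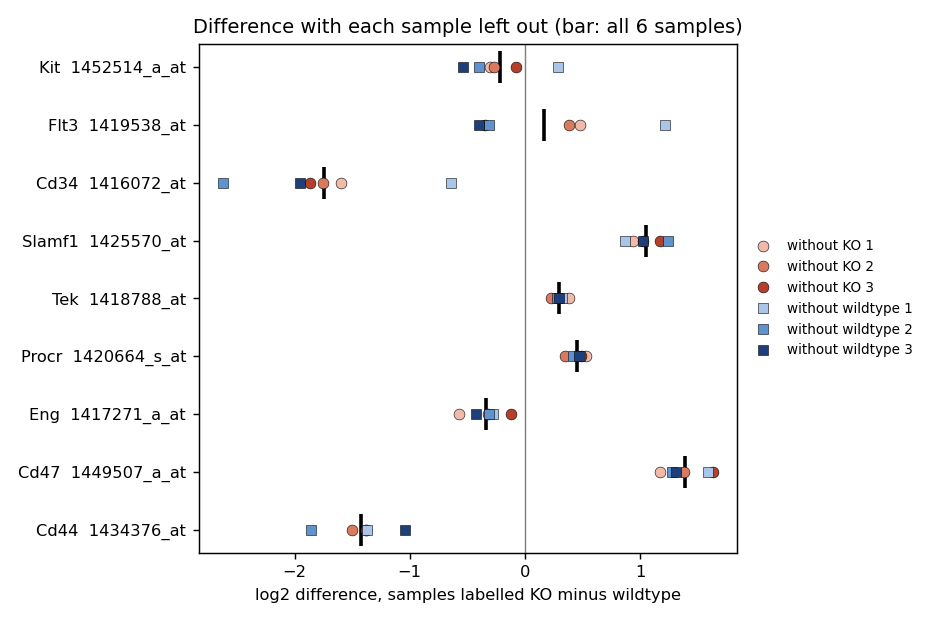
Difference in log2 RMA units of the brightest probe set of each gene with all 6 samples (bar) and with each sample left out in turn (circles for KO-labelled samples, squares for wildtype). Kit crosses 0 without wildtype replicate 1 and Flt3 crosses it without KO replicate 3 or wildtype replicates 2 or 3, while Slamf1, Cd47 and Cd44 keep their direction in each case.

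Most measured signalling partners of KIT and FLT3 did not pass. Of 23 genes, 1 rose and 1 fell, where 1.92% of all genes rose and 2.0% fell. The median of the 23 was -0.05. Sos1, the exchange factor that couples receptor kinases to RAS, rose by 1.33 ± 0.18 (SE, limma adjusted p = 0.0223). It read 5.90, 6.28 and 6.56 in KO-labelled marrow and 4.93, 5.02 and 4.81 in wildtype. Plcg2, a phospholipase of immune receptors, fell from 8.65 ± 0.85 to 5.85 ± 0.34 (SD, n = 3), 6.94-fold lower (limma adjusted p = 0.0276). Cbl, the ubiquitin ligase that takes activated KIT and FLT3 off the surface, differed by -1.33 and did not pass (limma adjusted p = 0.0615). The ligand genes stayed dim: Kitl, for stem cell factor, was near the floor in both groups, and Flt3l lay between 4.05 and 4.50.

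Of all genes, 1.92% rose and 2.0% fell past the threshold. Of 17 measured genes of the CD34 family and of CD44 and CD47 partners, 0 rose and 3 fell, with a median of 0.02. Sirpa, described above, is 1 of these, and Rap1gds1, an exchange factor of small GTPases, fell by 1.48 (limma adjusted p = 0.0101). Of 26 other surface markers of stem and progenitor cells, 1 rose and 3 fell, with a median of -0.60. Itga2b (CD41), an early haematopoietic and megakaryocytic integrin, rose by 1.76 ± 0.27 (SE, limma adjusted p = 0.0278). The Fc receptor genes Fcgr2b and Fcgr3, used to part myeloid progenitors, fell by 3.55 and 3.90 (limma adjusted p = 0.0216 and 0.0386), and Csf1r, the macrophage colony-stimulating factor receptor gene, fell by 4.30 (limma adjusted p = 0.0287). Ly6a, the stem cell antigen Sca-1 gene, which interferon raises in mouse cells, read 5.05, 5.33 and 4.82 in KO-labelled marrow and 7.96, 5.64 and 5.99 in wildtype. Its groups did not overlap, and 10.3% of all probe sets were lower without overlap. Wildtype replicate 1 was the high sample as for Cd34, and the difference of -1.46 did not pass (limma adjusted p = 0.272). Larger differences of this list that also did not pass included Cd93 (-3.42, limma adjusted p = 0.0558), Csf3r (-2.73, 0.0501) and Adgrg1 (2.43, 0.112). Without KO replicate 2, 13 of the 13 genes past the threshold that the naming rule took from these partner and marker lists lost the call; 5 lost it without KO replicate 1, 8 without KO replicate 3, 9 without wildtype replicate 1, 0 without wildtype replicate 2 and 8 without wildtype replicate 3, and 0 changed sign.

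**Figure D5:**
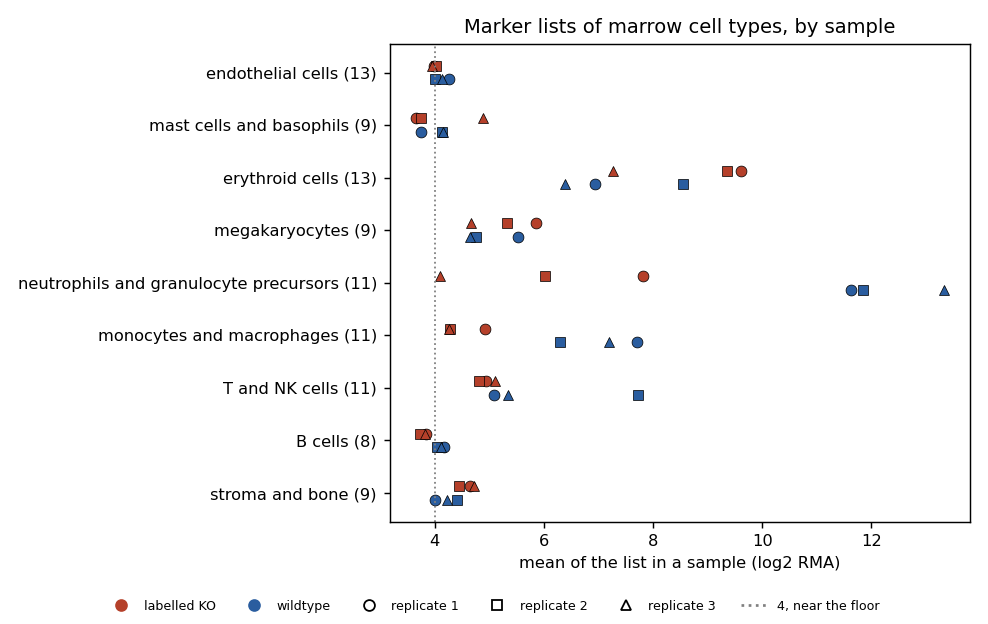
Mean log2 RMA level of 9 marker lists in each sample, with the number of measured genes in brackets and the dotted line at 4. Neutrophil and monocyte lists lie lower in the KO-labelled samples, at 4.10 to 7.81 and 4.27 to 4.93, wildtype replicate 2 stands at 7.72 in the T and NK cell list, and the endothelial list lies between 3.95 and 4.26 in all 6 samples.

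The genes whose levels moved most like a receptor over the 6 samples were found from the mean absolute difference of values centred on each gene's own mean, among at least 7324 probe sets with a group mean of 6 or more. For Kit they were Ctr9 (0.13) and Ift57 (0.18), and for Flt3 they were Camk1d (0.39) and Dock10 (0.46). For Cd34 they were Oas1a (0.15), an interferon-induced antiviral gene, and Selp (0.30), the P-selectin gene. Oas1a read 9.12 in wildtype replicate 1, 6.19 in wildtype replicate 3 and 4.99 to 5.45 in the other 4 samples. It shares its high samples with Cd34 because it was chosen for likeness to Cd34, and a part of interferon in these values was not tested. For Slamf1 they were Fbxo7 (0.10) and Arih1 (0.12), for Cd47 they were Leprot (0.12) and Tmem123 (0.14), and for Cd44 they were Ostf1 (0.08) and Bcl3 (0.12). With 6 samples and many genes to choose from, close matches of this kind are a description of these arrays alone.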

How the data were processed

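Each of 6 marrow RNA samples (200 ng) was hybridised to an Affymetrix MG-430_2.0 array, per the labels. The deposited log2 values are RMA values, per the submitters' processing notes, with no version given there. The authors also deposited a signed fold score, not used here, and p-values. Samples were taken by accession from the value table and symbols from the annotated table, and group means of the 2 tables differed by at most 3.3e-09.

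A limma fit of the 45101 probe sets gave unadjusted p-values within 4.95e-08 of the authors' deposited ones. This fit (lmFit and eBayes, limma 3.58.1 in R 4.3.3, KO minus wildtype, two-sided, Benjamini-Hochberg over all probe sets, threshold 0.05, no filter) gave every difference, standard error and interval. Differences within an array between the probe set of a gene with the highest mean and each other one were fitted the same way over 16708 pairs of 9340 genes. Lists were read at the probe set with the highest mean among those that name 1 gene, with 2676 old symbols updated to RefSeq (GRCm38.p6), and up to 4 members past the threshold were named by smallest p. Podxl, Cbl, Ly6a, Cd93, Csf3r and Adgrg1 did not pass and were named outside this rule. Members, lists and rules were chosen with earlier results of these data known. One of the genes so chosen is not reported here.

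On simulated data with 200 changed features, limma recovered 46% of 50 probe sets changed by 1 and 90% of those changed by 2 on the log2 scale, with 3.53% of 170 calls false. Over pairs it recovered 0% and 60%, with 9.42% of 138 calls false. The simulated spread was drawn for each probe set separately, so simulated probe sets of a gene shared no variation between samples. The recovery over pairs may therefore not describe the measured pairs. The measured probe sets gave 1320 calls against 170 simulated ones, and the adjusted p depends on how many features change. The recovery over probe sets may therefore not describe the measured probe sets either. The replicate numbers of the titles did not pair the samples: deviations of same-numbered samples from their group means correlated at -0.143, -0.0316 and -0.0197. Alternatives were leaving out each sample, blocking on the replicate number, a repeated quantile normalization, an intensity trend, robust or no moderation, array weights, filters at 4 and 6, control probe sets left out, a threshold of 0.1, gene-level tests and the authors' adjusted p-values. Figures were drawn with matplotlib 3.10.9.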

Additional observations from a re-analysis of the deposited data

How the results depend on the processing

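Of the 19 probe sets, 0 passed with all 6 samples; 1 passed with the replicate block (Cd47 1449507_a_at, limma adjusted p = 0.0402), 1 with an intensity trend (the same, 0.0415), 1 with array weights (Slamf1 1425570_at, 0.0455), 2 with a mean of at least 4 in a group (Slamf1 0.0423, Cd47 0.0326), 2 at a mean of at least 6 (Cd47 0.0215, Cd44 1434376_at 0.0448), 2 at an adjusted p under 0.1, and 0 to 3 with 1 sample left out, 3 without wildtype replicate 2. Over the array, 1320 calls became 833 with the block, 2649 at 0.1, 0 without moderation and 49 (without KO replicate 2) to 2190 (without wildtype replicate 2) with a sample left out. The replicate numbers did not pair the samples, so the block is an alternative only. Of the 3 Cd47 pairs, 0 passed without moderation and 2 with the block, and 1 to 4 pairs of these genes passed with a sample left out. Gfi1b kept its direction, at 5.29 to 6.29 with a sample left out, and missed the threshold without KO replicate 2 (limma adjusted p = 0.065) and without moderation (5.86, adjusted p = 0.174). With array weights, Flt3 turned to -0.45 and Cd47 1419554_at to -0.031. With a sample left out, differences that turned sign ran from -0.54 to 0.29 (Kit 1452514_a_at), -0.34 to 0.045 (Kit 1415900_a_at), -0.40 to 1.22 (Flt3), -0.068 to 0.38 (Cd47 1419554_at), -0.27 to 0.20 (Cd47 1428187_at) and -0.21 to 0.27 (Cd47 1430997_at). The cause of these changes was not tested.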
